A study of Mus musculus with 6 samples.

Results

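The cytosolic ribosomal protein genes encode the proteins that, with the ribosomal RNAs, build the ribosome of the cytosol. The large subunit (Rpl genes) holds the site where peptide bonds are made, and the small subunit (Rps genes) reads the mRNA. In T cells these mRNAs are among the most abundant, and many of them start with a cytosine followed by a run of pyrimidines, the 5′ terminal oligopyrimidine (TOP) sequence through which mTORC1 signalling controls their translation. Control of that kind acts on translation and need not change the mRNA level, which is what was measured here.

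Genes were taken by their symbols (Rpl or Rps followed by a number with an optional letter or l ending, and Rplp0, Rplp1, Rplp2 and Rpsa), without symbols ending in -ps and without the Rps6k kinases. They were also selected on their own counts, at least 10 raw counts in 3 or more of the 6 libraries, and the difference between the groups was not used. Of 83 genes with such symbols among the 29393 genes of the table, 81 passed, 49 of the large and 32 of the small subunit. GENCODE annotates 78 of the 81 as protein coding and 3 (Rpl32l, Rpl6l and Rps4l) as pseudogenes. Just inside the count limit lay Rpl39l, with 14 to 30 counts per library, and Rpl36al, with 25 to 44. Just outside lay Rpl24, with 7, 7 and 5 counts without IL-10 and 11, 16 and 9 with IL-10, and Rpl3l, with 15, 0 and 2 counts without IL-10 and 5, 2 and 0 with IL-10. In the annotation 71.5% of the main transcript of this Rpl24 entry lies under another annotated gene, Gm28037, on the same strand, so its low count cannot be read as the level of the mRNA alone.

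The cells were converted double negative T cells (cDNT) of C57BL/6 mice. The study's methods describe them as sorted CD4- CD8- cells obtained ex vivo by culturing CD4+CD25- T cells of CD45.1 mice together with IL-2 and mature dendritic cells, then kept with anti-CD3/CD28 antibodies, whereas the sample labels name adult spleen as the tissue and mention no antibodies. One group received IL-10 at 50 ng/ml for 24 h (with IL-10, libraries called IL-10 replicates, W/ IL-10 in the plots), the control group did not (without IL-10, control replicates, W/O IL-10 in the plots), and RNA-seq was done on 3 libraries per group, although the series' design text mentions duplicates. The labels name a TruSeq kit and the methods a NEBNext kit. Nothing in the labels says that the libraries of a group came from separate mice or cultures, so p-values measure the spread between these libraries, which may be technical. The comparison asks how IL-10 changes the transcriptome of cDNT.

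The libraries held 21619420 to 23967088 counts on genes. The 10 T cell markers were all expressed at 1 or more CPM (counts scaled to a fixed library total) in every library and summed to 2059 to 2491 CPM without IL-10 and 2650 to 2718 CPM with it. Cd4 was near 0 (0.35 to 1.55 CPM), but Cd8a lay at 95.7 to 119 CPM without IL-10 and 138 to 168 CPM with it, so the absence of CD8 was not seen at the level of the mRNA. Summed levels ranged from 149 to 271 CPM for 8 dendritic cell markers, 6 of which had 1 or more CPM in every library. Clec9a and Flt3 were at or near 0. Sums were 51.5 to 136 CPM for 4 B cell markers and 23.3 to 31.5 CPM for 4 macrophage markers. For 3 NK cell markers they were 545 to 573 CPM without IL-10 and 383 to 413 CPM with it. For 3 erythroid markers they were 0.310 to 3.88 CPM. In bulk RNA, fewer cells of a type and less RNA per cell cannot be told apart.

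The start of the mRNA is the part of these genes known to carry their shared regulation, so the 10 bases before and the first 20 bases from the RefSeq start (GRCm38.p6) are shown for members with different behaviour in the libraries. Capitals mark the TOP letters, a C at the start and every pyrimidine that follows it without a break.
Rps27 (small subunit, chr3:90213629-90213658, minus strand): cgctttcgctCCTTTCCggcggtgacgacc
Rpl38 (large subunit, chr11:114668570-114668599, plus strand): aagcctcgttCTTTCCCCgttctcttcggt
Rplp2 (stalk of the large subunit, chr7:141447641-141447670, plus strand): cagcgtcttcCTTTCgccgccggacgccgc
Rpl35 (large subunit, chr2:39005112-39005141, minus strand): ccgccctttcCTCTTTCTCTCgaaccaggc
Rps6 (small subunit, chr4:86857348-86857377, minus strand): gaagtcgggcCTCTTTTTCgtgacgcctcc
Rps2 (small subunit, chr17:24720053-24720082, plus strand): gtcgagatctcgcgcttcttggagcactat
The first 4 belong to members whose levels differed widely between libraries, Rps6 to one that varied little, and Rps2, whose annotated start lacks the letters, to the member with the largest log2 fold change among those with a mean of at least 10 CPM. Windows were found for 59 of the 81 members, with 70 annotated starts. A C followed by at least 4 pyrimidines stood exactly at 14 of these starts (20%), against 2.51% of all 32851 starts of the table and 0 of 75 starts of mitochondrial ribosomal protein genes. A pyrimidine run of 8 or more within 30 bases of the start on either side, on the transcribed strand, was found at 52.9% of the members' starts and 22.9% of all starts. An annotated start can lie some bases away from the start used in the cell, so no match says only that these letters are not at this position.

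**Figure D1:**
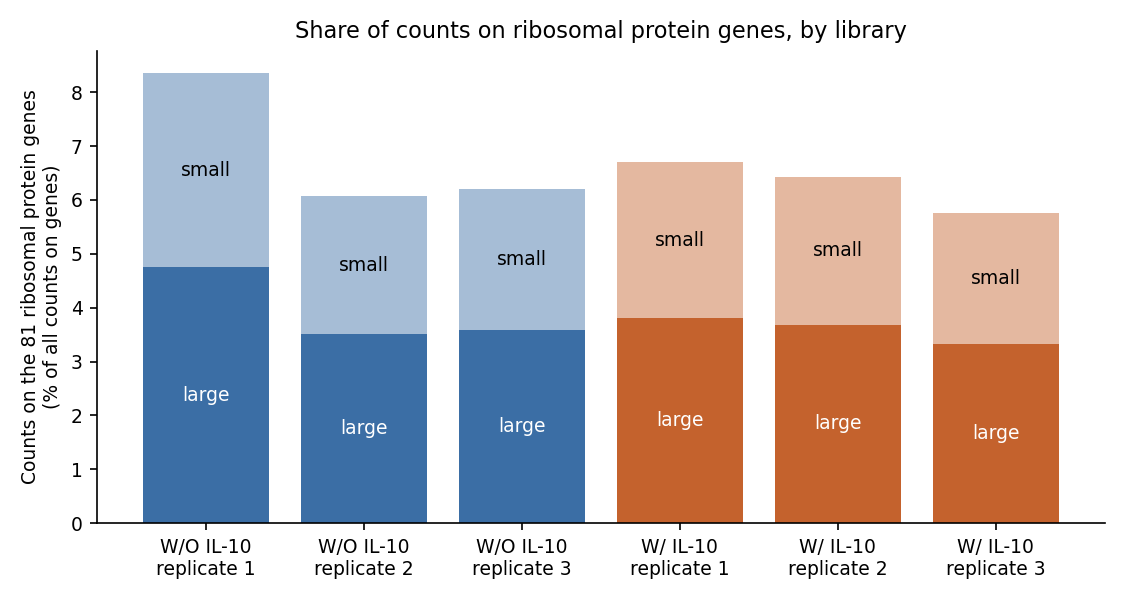
Counts on the 81 ribosomal protein genes as a percent of all counts on genes in each library (vertical axis, from 0), without IL-10 in blue and with IL-10 in orange, with the large subunit below and the small subunit above in a paler shade. The bar of control replicate 1 reaches 8.35%, and the other 5 lie between 5.76% and 6.70%.

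Ribosomal protein mRNA took overlapping shares of the counts in the groups. The members held 8.35%, 6.07% and 6.20% of all counts in control replicates 1, 2 and 3, a mean of 6.87% ± 1.28 (SD, n = 3). In IL-10 replicates 1, 2 and 3 they held 6.70%, 6.42% and 5.76%, a mean of 6.30% ± 0.481 (SD, n = 3). The groups overlapped, and the highest value belonged to 1 library without IL-10. The large subunit took 3.94% ± 0.695 without IL-10 and 3.60% ± 0.254 with IL-10 (SD, n = 3 each), and the small subunit took 2.93% ± 0.586 and 2.69% ± 0.227. Within a library the counts on the large subunit were 1.31 to 1.37 times those on the small, so the subunits kept their proportion in both groups (1.35 ± 0.0298 without IL-10 and 1.34 ± 0.0221 with IL-10, SD, n = 3 each).

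None of the 81 members was called differentially expressed between cDNT with and without IL-10. By the quasi-likelihood test of edgeR, Benjamini-Hochberg adjusted over 14916 genes, 0 members had an adjusted p under 0.05, where 2.19% of all tested genes did, 1.21% higher and 0.979% lower with IL-10, and 1.45% of all genes also had a fold change of at least 1.5. At an unadjusted p under 0.05 there were 0 members as well, with edgeR, DESeq2 and limma-voom alike. By edgeR, 2199 of all 14916 tested genes were under that limit. The smallest unadjusted p among the members was 0.231 by edgeR (Rps23, adjusted p = 0.602). Fitted log2 fold changes lay between -0.64 and 0.12, with 14 members above 0 and 67 below. Their median was -0.08, -0.08 for the large and -0.09 for the small subunit, beside 0.01 over all tested genes. For 58 members the log2 fold change with 2 standard errors on each side lay within a 1.5-fold change in either direction, and for the other 23 this range reached beyond it.

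**Figure D2:**
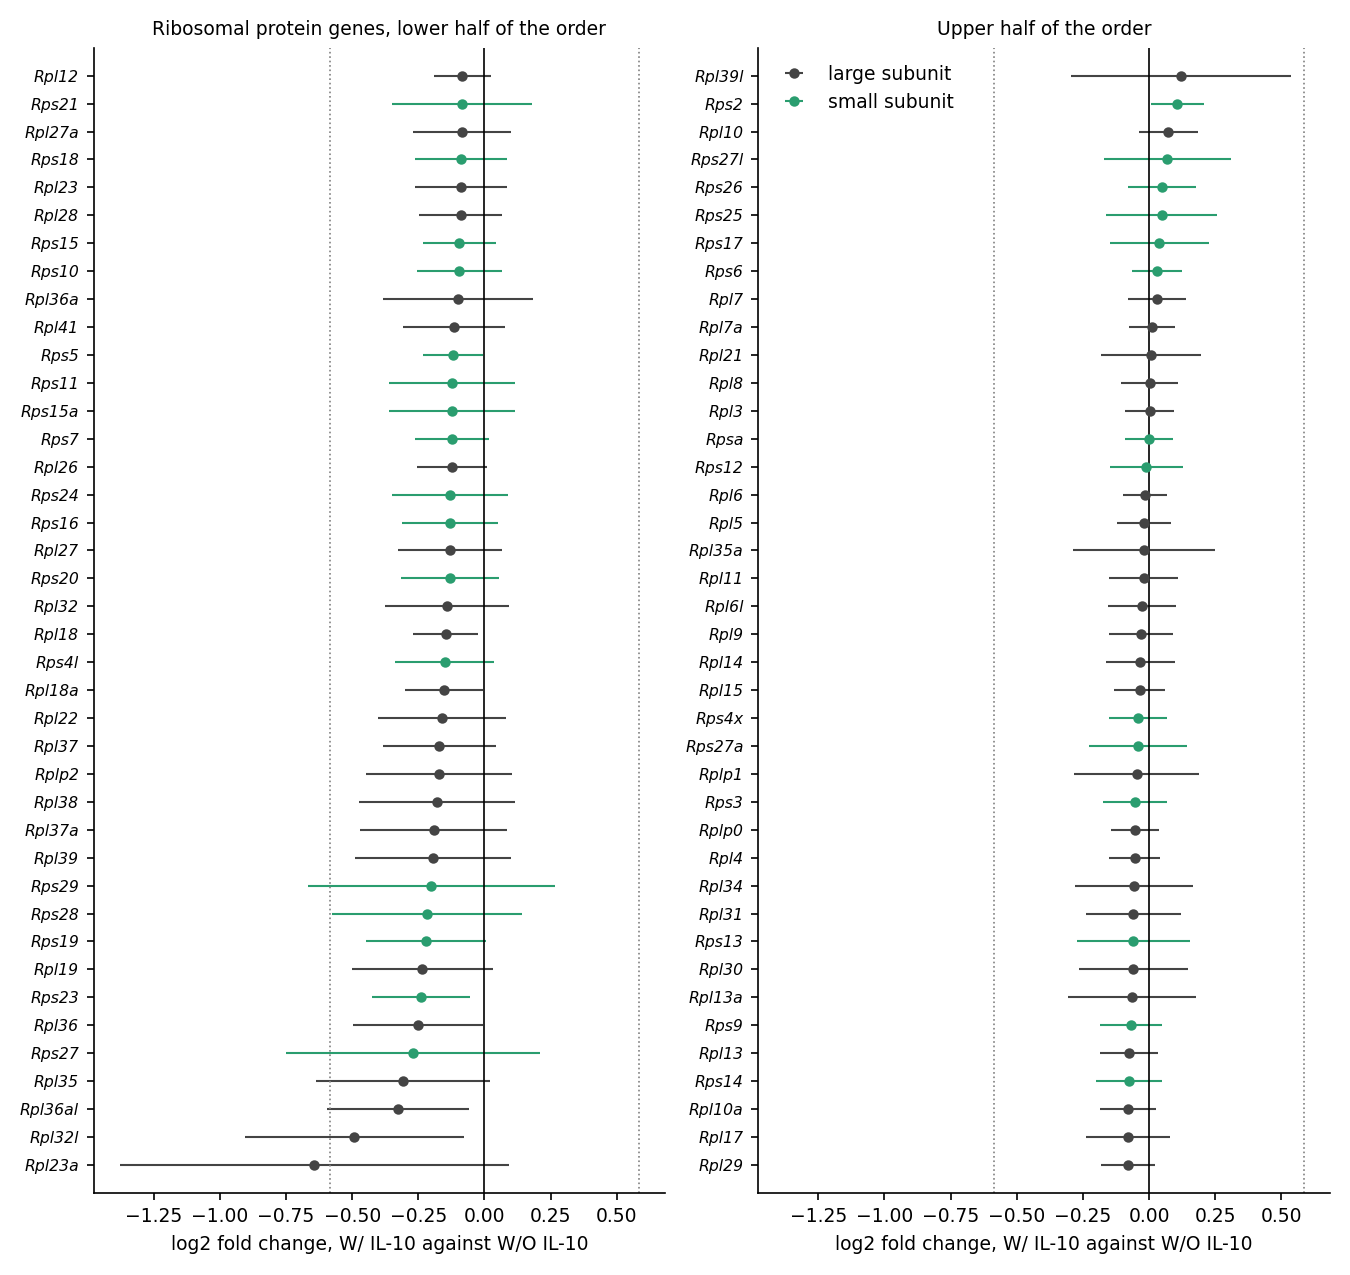
Log2 fold change with IL-10 against without IL-10 (horizontal axis) of 80 of the 81 ribosomal protein genes in 2 panels, ordered by value, large subunit in grey and small subunit in green. Points are edgeR estimates, bars are 1 standard error, and dotted lines mark a 1.5-fold change. Values run from -0.64 for Rpl23a to 0.12 for Rpl39l. The widest bar is that of Rpl23a (SE 0.74), and Rpl39l at the upper end also has a wide one (SE 0.42).

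The groups of libraries were seldom apart. Non-overlapping values, with all 3 libraries of one group above all 3 of the other, were found for 0 members higher with IL-10 and for 1 lower, against 11.3% of all tested genes higher and 11.2% lower. The 1 member was Rpl36al, a paralog of Rpl36a, with 1.75, 1.78 and 1.89 CPM without IL-10 and 1.5, 1.73 and 1.09 CPM with IL-10. Its log2 fold change was -0.33 (SE 0.27, adjusted p = 0.625 by edgeR). These are 25 to 44 counts per library, and 63.1% of its main transcript lies under another gene, Gm49383, on the same strand.

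One library carried most of the spread. In control replicate 1 all 81 members were above their own mean over the 6 libraries, and 73 of the 81 had their highest level there. In IL-10 replicate 1, 70 members were above their mean. In IL-10 replicate 3, 1 member was above its mean and 53 had their lowest level. The median deviation of the members from their own means was 0.40, -0.19 and -0.13 on the log2 scale in control replicates 1, 2 and 3, and 0.15, -0.03 and -0.23 in IL-10 replicates 1, 2 and 3. The sign of the members' median log2 fold change therefore rested on single libraries. Without control replicate 1 it was 0.12, with 75 members above 0, and without IL-10 replicate 3 it was 0.00. Without either of the other libraries without IL-10 it was -0.19 (replicate 2) and -0.17 (replicate 3), and without IL-10 replicate 1 it was -0.17. Leaving out both libraries numbered 1, chosen after seeing these values, gave 0.03. In each of these fits 0 members were called by edgeR.

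The spread followed the length of the protein. Across the 78 coding members, the deviation in control replicate 1 had a Spearman rho of -0.72 (Pearson -0.54) with the log2 coding length, and that in IL-10 replicate 3 one of 0.82 (Pearson 0.64). These are descriptions over members measured in the same libraries. Among genes with a mean of at least 100 CPM, the 9 members with up to 300 coding bases had a median deviation of 0.76 in control replicate 1 and of 0.34 in IL-10 replicate 1. The 11 members with more than 700 and up to 1000 coding bases had 0.11 and 0.05. Other coding genes at that level had medians of 0.21 and 0.19 in these 2 libraries for 28 genes of up to 300 coding bases, and of -0.01 and 0.05 for 248 genes of more than 700 and up to 1000. GC content of the members had no such relation (Spearman rho between -0.13 and 0.11 in the 6 libraries). In the same 2 libraries, all other genes with up to 500 coding bases took the largest shares of counts, 7.95% and 7.61%, against 6.75% to 7.41% in the other 4. The mitochondrial transcripts took 1.34% of the counts in control replicate 1 and 2.20% to 2.79% in the other 5. After a correction for GC content and length on the principal transcript, added after seeing the data, the members' median deviation was 0.24 in control replicate 1 (0.40 before) and -0.14 in IL-10 replicate 3 (-0.23 before). The part of RNA quality in the members' spread was not tested.

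**Figure D3:**
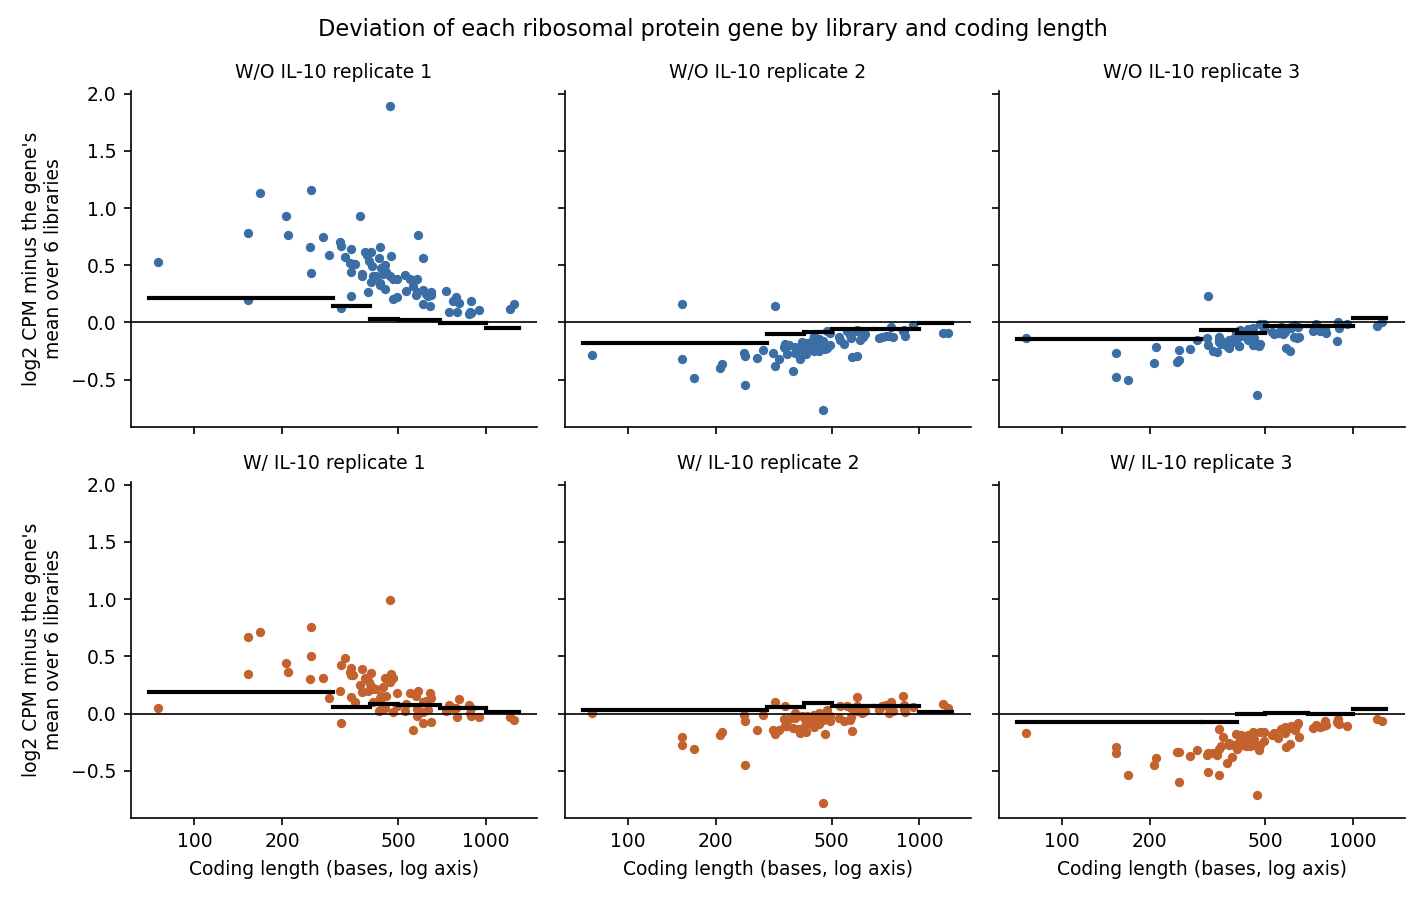
Deviation of each coding ribosomal protein gene from its own mean over the 6 libraries (vertical axis, log2 CPM) against coding length in bases (horizontal log axis), 1 panel per library. Points are the 78 coding members, and black lines are medians of other coding genes with at least 100 CPM in 6 length classes, the last one open to the right. Short members lie highest in control replicate 1 and IL-10 replicate 1 and low in the other 4 libraries.

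Several of the shortest members differed widely between libraries. Rps27, a zinc finger protein of the small subunit, had 581, 179 and 208 CPM without IL-10 and 439, 191 and 173 CPM with IL-10. Rps29, also a zinc-binding protein of the small subunit, had 457, 149 and 147 CPM without IL-10 and 343, 168 and 144 CPM with IL-10. Both genes were high in replicate 1 of each group and alike in the other 4 libraries, and the groups overlapped. Rps27 had a log2 fold change of -0.27 (SE 0.48, adjusted p = 0.841), and Rps29 one of -0.20 (SE 0.47, adjusted p = 0.884, both by edgeR). Rpl38 of the large subunit, known for its part in translating a subset of mRNAs in the embryo, had 368, 169 and 187 CPM without IL-10 and 280, 194 and 166 CPM with IL-10. Rpl39, which lines the tunnel through which the new peptide leaves, had 457, 213 and 220 CPM without IL-10 and 337, 231 and 210 CPM with IL-10. The coefficient of variation over the 6 libraries was 58.6% for Rps27 and 56.8% for Rps29, beside a median of 18.9% over the members.

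The large and abundant members varied least. Rplp0, the scaffold of the P stalk that binds translation factors, had 3871, 3524 and 3552 CPM without IL-10 and 3503, 3725 and 3325 CPM with IL-10. Its log2 fold change was -0.05 (SE 0.09, adjusted p = 0.831 by edgeR). The groups overlapped, with the highest value without IL-10 and the lowest with IL-10. Its partners in the stalk, the short Rplp1 and Rplp2, spread more. Rplp1 had 1642, 986 and 958 CPM without IL-10 and 1473, 1106 and 892 CPM with IL-10. Rplp2 had 946, 520 and 538 CPM without IL-10 and 800, 561 and 417 CPM with IL-10. In both, replicate 1 was the highest of its group. Rpsa, the laminin receptor homologue of the small subunit, had 2869, 2565 and 2671 CPM without IL-10 and 2708, 2844 and 2552 CPM with IL-10, a log2 fold change of -0.00 (SE 0.09). Rpl6 had the smallest coefficient of variation of all members, 3.92%.

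**Figure D4:**
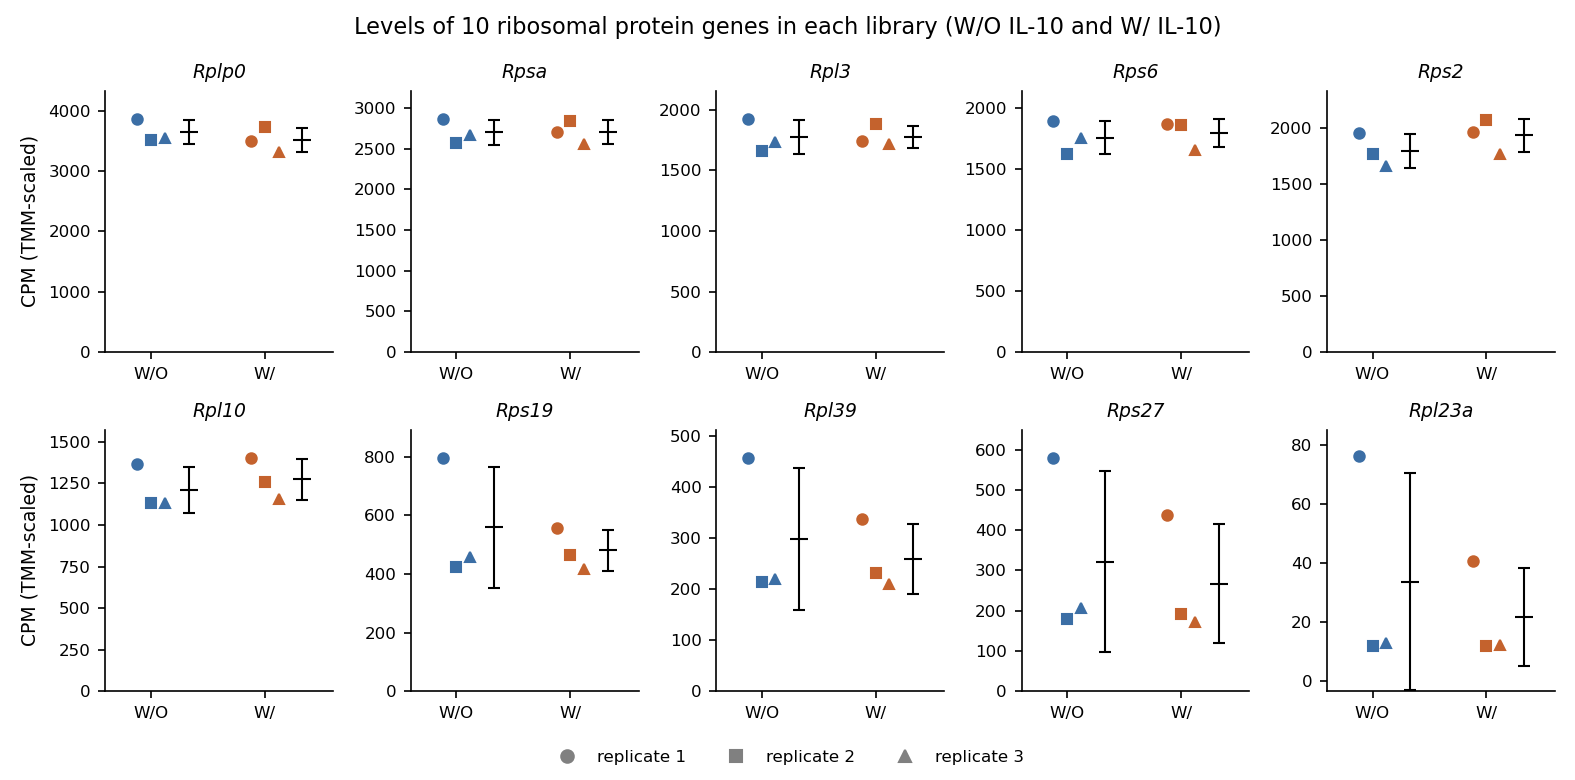
TMM-scaled CPM (vertical axes, each with its own scale) of 10 ribosomal protein genes in the 3 libraries without IL-10 (blue) and with IL-10 (orange). Circles, squares and triangles are replicates 1, 2 and 3, and black bars are the group mean ± SD, which for Rpl23a without IL-10 reaches below 0. The replicates of Rplp0 and Rpsa lie close together, and replicate 1 lies apart in both groups for Rps27 and Rpl23a.

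No member picked for a known role, in the ribosome or beyond it, was called either. Rps6, the substrate of the S6 kinases, had 1893, 1620 and 1757 CPM without IL-10 and 1867, 1859 and 1658 CPM with IL-10 (log2 fold change 0.03, SE 0.10, adjusted p = 0.916 by edgeR). Rpl5 and Rpl11 form a particle with the 5S rRNA that can bind Mdm2 and stabilise p53. Rpl5 had 1452, 1176 and 1235 CPM without IL-10 and 1320, 1293 and 1202 CPM with IL-10, and Rpl11 had 833, 617 and 640 CPM without IL-10 and 730, 719 and 612 CPM with IL-10. Their log2 fold changes were both -0.02 (SE 0.10 and 0.13). Rps27a, made as a fusion with ubiquitin, had a log2 fold change of -0.04 (SE 0.19, adjusted p = 0.946). Rps19, the gene most often mutated in Diamond-Blackfan anaemia, had 797, 425 and 456 CPM without IL-10 and 556, 465 and 418 CPM with IL-10, a log2 fold change of -0.22 (SE 0.23, adjusted p = 0.698). Rpl3 and Rpl10, which shape the peptidyl transferase centre and its surroundings, had log2 fold changes of 0.00 (SE 0.09, adjusted p = 0.994) and 0.07 (SE 0.11, adjusted p = 0.808).

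The 5 largest log2 fold changes among members with a mean of at least 10 CPM were those of Rps2 (0.11), Rpl10 (0.07), Rps27l (0.07), Rps26 (0.05) and Rps25 (0.05), all with adjusted p-values of 0.666 or more by edgeR. Rps2, a protein of the entry channel for mRNA, had 1957, 1770 and 1659 CPM without IL-10 and 1961, 2070 and 1772 CPM with IL-10 (SE 0.10, adjusted p = 0.666). Its values overlapped, since control replicate 1 lay above IL-10 replicate 3. Without that library the groups of Rps2, Rpl10 and Rps26 no longer overlapped, higher with IL-10, as was the case for 16.0% of all genes tested in that fit. None of them was called (adjusted p = 0.449 for Rps2). The 5 smallest were those of Rpl23a (-0.64), Rpl35 (-0.31), Rps27 (-0.27), Rpl36 (-0.25) and Rps23 (-0.24). Rpl36 had 605, 310 and 339 CPM without IL-10 and 427, 338 and 290 CPM with IL-10. Rps23, a protein of the decoding centre, had 1554, 940 and 991 CPM without IL-10 and 1069, 1018 and 868 CPM with IL-10. In all 5, control replicate 1 was the highest of the 6 libraries.

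Rpl23a, a protein near the exit of the peptide tunnel, had the widest spread of all members, with a coefficient of variation of 94.9%. It had 1867, 290 and 305 counts without IL-10 and 842, 268 and 284 with IL-10, or 76.2, 12 and 13.1 CPM and 40.9, 11.9 and 12.4 CPM. Replicate 1 of each group was several times the other libraries, which were alike across the groups (SE of the log2 fold change 0.74, adjusted p = 0.734). The gene lies at chr11:78180932-78183584 on the minus strand (GRCm38). Counted on either strand, 80.8% of its 50-base stretches also occur in transcripts of other genes. This share includes stretches under Tlcd1 on the other strand, which covers 59.7% of its exon bases. Rpl35 (chr2:39001580-39005624, minus strand) shares 84.0% of its stretches, counted in the same way. Of its exon bases 66.2% lie under Arpc5l and Wdr38 on the other strand, and stretches there are part of that share. It had 92.7, 36.2 and 41.9 CPM without IL-10 and 57.5, 44.5 and 36.0 CPM with IL-10. The sources used here do not state whether strand was used in counting, so reads of such genes and their partners cannot be told apart. Over the members the median share of such stretches was 23.7%, 6 members had 50% or more, and 14 had under 10%. The median log2 fold change of these 14 was -0.10.

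Levels are compared between members only per kilobase of coding sequence, here as mean CPM over the 6 libraries divided by that length. The median over the 78 coding members was 1498 CPM per coding kilobase, with quartiles of 1148 and 2113. The highest were Rpl41 (15310), Rplp0 (3768), Rplp1 (3439), Rps24 (3108) and Rpsa (3052). Rpl41 encodes the shortest protein, with 75 coding bases, so reads from the untranslated parts weigh heavily in its value. The lowest were Rpl36al (5.11), Rpl39l (5.97), Rpl13a (16.7), Rpl23a (59.3) and Rpl35 (139). The first pair are paralogs of abundant members. Of Rpl36al in that pair and of the other 3, 59.3% or more lies under other annotated genes. For Rpl36al and Rpl13a this is the part of the main transcript on the same strand. For Rpl23a and Rpl35 it is the part of the exon bases on the other strand. For Rpl13a, which is known for a role in silencing inflammatory mRNAs in myeloid cells, the overlapping genes are Gm45713 and Mir5121. Its counts, 361, 195 and 194 without IL-10 and 219, 247 and 188 with IL-10, therefore cannot be read as the level of its mRNA alone. Of the 100 most counted genes of the table, 34 were members.

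Paralogs were compared as ratios within a library, which do not depend on library scaling. Of 7 pairs fixed by name, 5 had at least 10 counts of each gene in every library, and 3 libraries against 3 cannot give an exact p below 0.1. Rpl22l1, the paralog that Rpl22 is known to repress, was at 3.68%, 4.92% and 5.63% of the Rpl22 count without IL-10 and at 9.39%, 6.38% and 6.03% with IL-10. The groups did not overlap, and the ratio was 0.61 higher on the log2 scale with IL-10 (two-sided exact permutation test, p = 0.1, adjusted p = 0.5 over 5 pairs). Rpl22l1, whose symbol ends in a digit and which is no member, had 15.9, 11.7 and 14.2 CPM without IL-10 and 32.9, 16.4 and 13.1 CPM with IL-10, with overlapping groups (log2 fold change 0.58, SE 0.31, adjusted p = 0.428 by edgeR). Without IL-10 replicate 1 the difference of the ratio was 0.41. Rpl22 itself had 433, 239 and 251 CPM without IL-10 and 351, 257 and 218 CPM with IL-10.

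In the other 4 pairs the groups overlapped. Rps27l, a p53 target, stood at 15.6%, 30.9% and 27.5% of the Rps27 count without IL-10 and at 21.8%, 33.7% and 31.0% with IL-10 (exact permutation test, p = 0.5). Rpl39l, known from the ribosomes of male germ cells, stood at 0.321% ± 0.128 of Rpl39 without IL-10 and at 0.358% ± 0.0656 with IL-10 (SD, n = 3 each, exact permutation p = 0.6). Rpl36al stood at 0.788% ± 0.280 of Rpl36a without IL-10 and at 0.629% ± 0.181 with IL-10 (exact permutation p = 0.6). Rpl7l1 stood at 7.11% ± 0.643 of Rpl7 without IL-10 and at 6.71% ± 0.219 with IL-10 (exact permutation p = 0.5). The adjusted p was 0.6 for these 4 pairs.

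Few other genes of protein synthesis passed the test. Over all 14916 tested genes, 2.19% were called, and 2199 had an unadjusted p under 0.05 by edgeR. Of 77 mitochondrial ribosomal protein genes 0 were called by edgeR (5 at an unadjusted p under 0.05), with a median log2 fold change of -0.00 and the extremes Mrps28 (-0.35) and Mrps18c (0.74). Their median deviation in control replicate 1 was 0.14. Of 48 translation factors 0 were called (3 at an unadjusted p under 0.05), with a median of 0.06 and the extremes Eif2b4 (-0.24) and Eif1a (0.42). The 23 mRNAs with a TOP sequence that encode no ribosomal protein of the rule had a median of 0.02, 0 called (1 at an unadjusted p under 0.05, Hnrnpa1 at 0.26). Fau and Rack1, ribosomal components under other names, had log2 fold changes of -0.20 and -0.10. Rps3a1, also outside the symbol rule, had 0.02, and Rpl7l1 had -0.04. None of these was called.

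Ribosome assembly held the only gene of these lists past the threshold. Rrp1b, a nucleolar protein of large subunit assembly, had 56.6, 57.3 and 56.0 CPM without IL-10 and 74.4, 74.2 and 75.6 CPM with IL-10. It rose by 0.40 on the log2 scale (SE 0.06, adjusted p = 0.0219 by edgeR), less than the 1.5-fold change that the study asked for. Its adjusted p was 0.0506 with total counts in place of TMM scaling, and 0.0695 to 0.130 when any library other than control replicate 1 was left out, with log2 fold changes of 0.34 to 0.40. It was 1 of 52 genes of ribosome biogenesis, whose median was 0.00, where 2.19% of all tested genes were called. Of 10 snoRNA host genes 0 were called (2 at an unadjusted p under 0.05), with a median of -0.16 and the extremes Snhg20 (-0.26) and Snhg5 (0.28), and their median deviation in control replicate 1 was 0.36. Of 85 tested ribosomal protein pseudogenes with -ps symbols 0 were called (0 at an unadjusted p under 0.05), with a median of -0.08, the extremes Rpl35a-ps2 (-1.26) and Rps25-ps1 (0.55), and a median deviation of 0.42 in control replicate 1, close to the 0.40 of the members with which they share sequence.

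In these libraries genes of mTORC1 and S6 kinase signalling were measured at the mRNA level only. Apart from the RNA-seq, the paper reports no increase of phosphorylated mTOR (pi-mTOR) in cDNT after IL-10. Of 22 such genes, a list that takes in kinases of the Rps6ka family beside Rps6kb1, 0 were called by edgeR. At an unadjusted p under 0.05 there were 6, beside 2199 of all 14916 tested genes. Their median log2 fold change over the 22 was -0.02, with the extremes Rps6ka2 (-0.43) and Rps6ka3 (0.43). Mtor, the kinase itself, had 82.8 ± 0.204 CPM without IL-10 and 81.3 ± 5.16 with IL-10 (SD, n = 3 each). Larp1, which binds the TOP sequence, had 286 ± 7.46 and 297 ± 0.518 CPM, and Rps6kb1, the S6 kinase, 58.6 ± 6.15 and 67.1 ± 0.566 CPM. Eif4ebp1, a repressor of cap-dependent translation that mTORC1 switches off, had 87.8 ± 16.6 and 75.2 ± 6.45 CPM. Myc, which drives ribosome production, had 89.2 ± 7.41 and 103 ± 5.04 CPM (log2 fold change 0.20, SE 0.08, adjusted p = 0.294). In the list of 22, the groups of 5 genes did not overlap with higher values with IL-10 (Rheb, Rps6kb1, Rps6ka3, Larp1 and Myc) and those of 5 with lower values (Rps6ka2, Rps6ka5, Eif4ebp2, Eef2k and Pdcd4), 22.7% in each direction, where all tested genes had 11.3% and 11.2%, and none of the 10 was called. Those other than Mtor, Larp1, Rps6kb1, Eif4ebp1, Myc and the extremes were named after their values were seen.

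The 14 members with the TOP letters at an annotated start, among them the pseudogene Rpl32l, had a median log2 fold change of -0.09. The 45 with a start but without the letters had -0.07. Since annotated starts can lie off the start used in the cell, this split does not separate mRNAs with a TOP sequence from those without. The median deviation in control replicate 1 was 0.58 for the 14 against 0.35 for the 45, and the median coding length 390 against 438 bases.

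**Figure D5:**
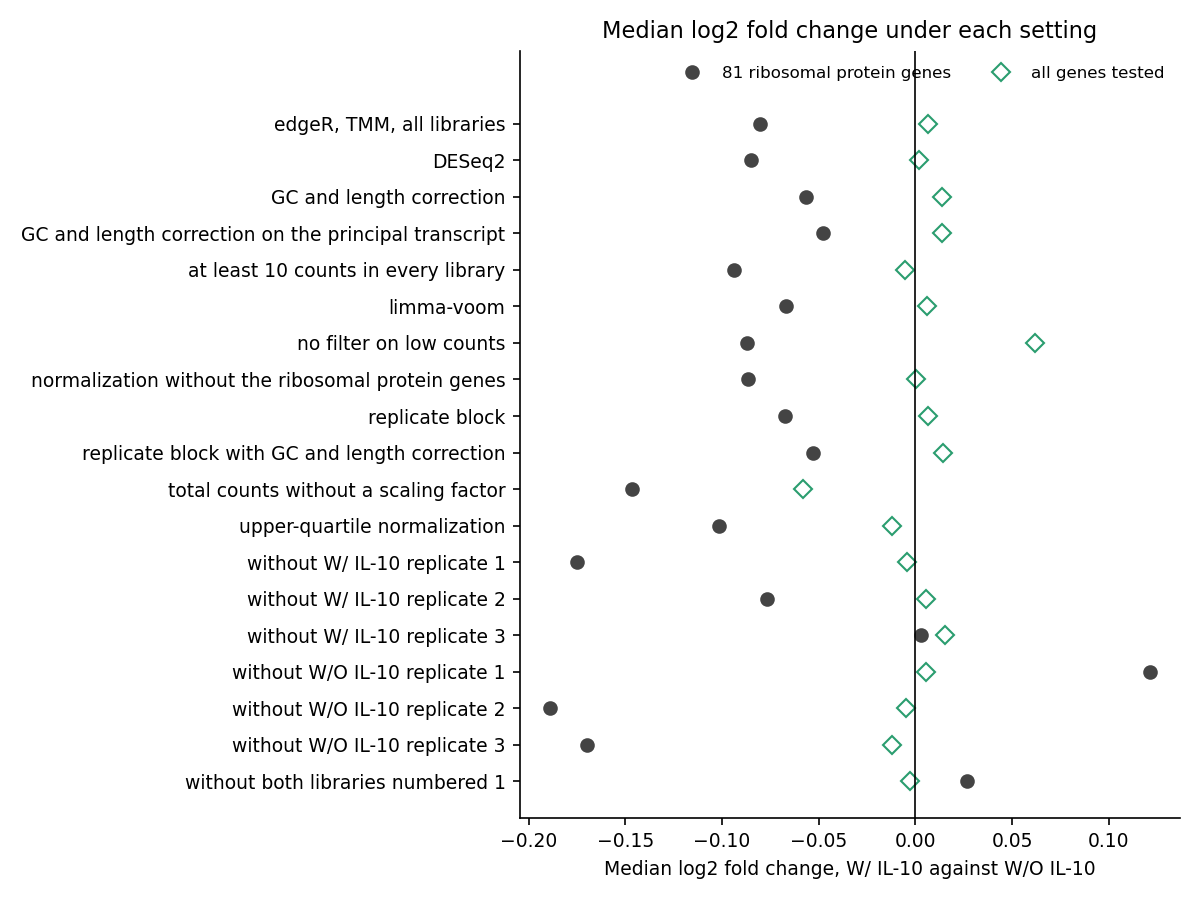
Median log2 fold change with IL-10 against without IL-10 (horizontal axis) of the 81 ribosomal protein genes (filled circles) and of all genes tested (open diamonds), 1 line per normalization, test, filter or set of libraries. The members' median lies between -0.19 and 0.12 and is above 0 in the 3 lines without control replicate 1, without IL-10 replicate 3 and without both libraries numbered 1.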

How the data were processed

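RNA-seq of cDNT with and without IL-10 was analysed from 3 libraries per group, grouped by the sample labels. The authors deposited raw counts per Ensembl gene, whole numbers that were not normalized. The submitters' processing notes name HISAT2, HTSeq and GRCm38, whereas the study's methods name TopHat and Cufflinks, and whether strand was used is not given in the sources used here. Reads that fit several copies or overlapping genes can be lost or assigned wrongly in such counts. All value columns were used. The libraries held 21619420 to 23967088 counts, so that 3 counts equalled 0.125 to 0.139 CPM, which covers counting error only.

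From the counts, edgeR 4.0.16 in R 4.3.3 computed TMM factors (0.953 to 1.03) and the quasi-likelihood test without a block on 14916 genes, those reaching 10 counts in 3 or more libraries, with Benjamini-Hochberg adjustment over all of them. A gene was called at an adjusted p under 0.05, and also with the study's added fold change of at least 1.5. CPM use TMM-scaled library sizes. A deviation is log2(CPM + 0.1) minus the gene's mean over the libraries. Standard errors were derived from the log2 fold change and the F statistic (its size over the root of F). Symbols, coordinates and coding lengths of the principal transcript come from GENCODE M21 (GRCm38), in which 29332 of 29393 identifiers were found, and starts from RefSeq (GRCm38.p6). Sharing is the part, in percent, of all 50-base stretches of a gene that transcripts of other genes also hold on either strand. It therefore includes stretches that lie under genes on the other strand.

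Named members were those called, the 5 largest and smallest log2 fold changes above 10 CPM, the 5 highest and lowest levels per coding kilobase, the paralog pairs, those near the count limit and a fixed list of known roles. Of the other lists those called, or else the extremes, were named. Rpl6, Rps28, Rps29, Rpl38 and the genes of the printed starts were added after their values were seen. Values of a few genes are left out here. The members and lists were chosen with earlier results of these data known. Alternatives were DESeq2 1.42.0, limma-voom (limma 3.58.1), other normalizations and filters, the replicate number as a block, splines on GC content and length (5 degrees of freedom each), each library left out in turn and 2 other sets of members. In simulated counts edgeR recovered 52.5% of 200 genes changed 1.5-fold (14668 genes tested) and 74.0% of those changed 2-fold (14677 genes tested). The simulated spread was the one typical of each level. With up to 300 coding bases and at least 100 CPM, members had a median coefficient of variation of 35.5%. Other coding genes of that length and level had 14.8%, so these recovery shares do not apply to the short members.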

Additional observations from a re-analysis of the deposited data

How the results depend on the processing

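No member was called in 17 of the 18 alternative fits. The exception was the fit with no filter on low counts, in which 1 member was called, also with the fold change of at least 1.5. It was Rpl23a (log2 fold change -0.65, adjusted p = 9.54e-06 by edgeR, against 0.224 to 0.919 in the other alternatives), although its groups overlapped, and the cause was not tested. At an unadjusted p under 0.05 by edgeR there were 10 members with no filter on low counts. There were 3 with the replicate block and the GC content and length correction, and 1 with either such correction without the block. There was 1 when control replicate 1 was left out, and 0 in the other alternatives. Leaving out each library in turn moved the members' median log2 fold change between -0.19 and 0.12, that of the large subunit between -0.19 and 0.11 and that of the small subunit between -0.19 and 0.13, and 0 members were called each time. Without both libraries numbered 1, a setting added after seeing the data, it was 0.03. The settings that kept all libraries had a median below 0, between -0.15 (total counts) and -0.05 (GC content and length correction on the principal transcript, added after seeing the data). Members with non-overlapping groups numbered 0 to 4 higher and 1 to 4 lower with IL-10 when a library was left out, where 14.7% to 17.7% of all genes were higher and 15.4% to 17.7% lower. They were 1 higher and 0 lower with the GC content and length correction, with or without the replicate block (12.2% and 9.54% of all genes), 2 higher and 0 lower with the correction on the principal transcript (12.6% and 9.51%), and 4 higher and 2 lower without both libraries numbered 1 (22.2% and 22.3%). The 14 members that share under 10% of their stretches had 0 lower, and they took 1.15% of the counts without IL-10 and 1.03% with IL-10.

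Over all genes, same-numbered libraries had correlations of deviations from their group means of 0.0524, -0.0573 and 0.114. Those of differently numbered libraries were -0.106 to 0.0409, so no clear pairing was seen over all genes. The members' deviations from their means over the 6 libraries had a Pearson correlation of 0.75 between control replicate 1 and IL-10 replicate 1. Between control replicate 1 and IL-10 replicates 2 and 3 it was -0.88 and -0.86, and with control replicates 2 and 3 it was -0.91 and -0.74. Such deviations sum to 0 for each gene over the 6 libraries, which by itself favours negative correlations. They therefore cannot be set against the values over all genes, which are taken from group means. Whether the replicate numbers pair the libraries was not tested. With the replicate block the members' median was -0.07, with 0 called, and with the block and the GC content and length correction it was -0.05, again with 0 called. The block alone ended the call of Rrp1b (adjusted p = 0.0508 by edgeR). The paralog ratios moved with single libraries, from -0.04 to 0.45 on the log2 scale for Rps27l/Rps27, from -0.63 to -0.10 for Rpl36al/Rpl36a, from 0.41 to 0.74 for Rpl22l1/Rpl22, from -0.01 to 0.52 for Rpl39l/Rpl39 and from -0.15 to -0.02 for Rpl7l1/Rpl7. Of 522 log2 fold changes of 29 named members under the alternatives, 430 kept their sign.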
